A study of Mus musculus with 6 samples.

Results

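S100a4, S100a6, S100a10, S100a11, Anxa1, Anxa2, Lgals1, Lgals3, Crip1 and Capg were followed in single iNKT cells of mouse liver, spleen and lymph node. The 10 genes were taken by symbol from the 27998 genes of the deposited list, and they had been chosen for their levels across the 3 organs, in cells with Il2rb UMIs and in cells with Ccr6 or Il23r UMIs. Every cell of the 6 libraries entered that choice, so the values of these genes are given throughout as a description, with no test, and calls are given for other genes only. A UMI is a molecular tag that marks 1 captured transcript.

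The iNKT cells came from 5-week-old WT mice of the C57BL/6 strain, and the labels name no treatment or transgene in any group. Cells carrying CD8 or B220 were depleted, and cells positive for TCR-β and the CD1d tetramer were then sorted from each organ. There were 2 libraries per organ, 6 in all, made with droplet 3' chemistry that counts the end of each transcript. The number of mice behind each library is not in the labels, which do not call libraries separate animals, so p-values measure only the spread between these libraries.

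iNKT cells are T cells with a nearly fixed T cell receptor that read lipids presented by CD1d, and they leave the thymus already poised as effector cells. Il2rb encodes the β chain of the receptor for IL-2 and IL-15 and marks the interferon-producing iNKT1 subset, while Ccr6, a chemokine receptor, and Il23r, the IL-23 receptor, mark the IL-17-producing iNKT17 subset. S100 proteins are small, mostly calcium-regulated proteins, annexins bind membrane phospholipids when calcium rises, and S100a10 and S100a11 are known as partners of annexins A2 and A1. Galectins bind β-galactosides on glycoproteins, Crip1 is a small LIM domain protein, and Capg caps actin filaments. Together these genes are known from activated, memory and migrating T cells.

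The 4 S100 genes lie on chromosome 3 of the mm10 genome in pairs. S100a4 (ENSMUSG00000001020; chr3:90603771-90606045, plus strand) and S100a6 (ENSMUSG00000001025; chr3:90612882-90624181, plus strand) are separated by 6837 bases, with S100a5 between them. S100a11 (ENSMUSG00000027907; chr3:93520488-93526287, plus strand) and S100a10 (ENSMUSG00000041959; chr3:93555080-93564643, plus strand) lie 2896307 bases further on and are separated by 28793 bases with no protein-coding gene between them. Anxa1 is on chromosome 19 (chr19:20373428-20390944, minus strand), Anxa2 on chromosome 9 (chr9:69453620-69491795), Lgals1 on chromosome 15 (chr15:78926725-78930465), Lgals3 on chromosome 14 (chr14:47367751-47386160), Crip1 on chromosome 12 (chr12:113146316-113153879) and Capg on chromosome 6 (chr6:72544391-72562983), all of the latter on the plus strand.

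Promoter windows of 8 of the 10 genes were found in RefSeq (GRCm38.p6), from 250 bases before to 50 after the start; S100a10 and Lgals1 are named only. Those of S100a4, S100a6, S100a11 and Capg are shown, the S100 genes as neighbours on 1 chromosome and Capg for its width of range between organs. Capitals mark matches, on either strand, to the letters of an AP-1 motif (TGANTCA), a T-box motif (AGGTGT), a GC box (GGGCGG) or a RUNX motif (TGTGGT).
S100a4 (chr3:90603520-90603819, plus strand): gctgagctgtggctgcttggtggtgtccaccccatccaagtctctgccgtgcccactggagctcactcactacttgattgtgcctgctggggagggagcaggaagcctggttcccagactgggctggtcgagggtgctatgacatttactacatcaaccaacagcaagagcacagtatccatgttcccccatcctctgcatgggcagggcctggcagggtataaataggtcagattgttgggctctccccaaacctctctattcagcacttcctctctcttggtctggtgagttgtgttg
S100a6 (chr3:90612644-90612943, plus strand): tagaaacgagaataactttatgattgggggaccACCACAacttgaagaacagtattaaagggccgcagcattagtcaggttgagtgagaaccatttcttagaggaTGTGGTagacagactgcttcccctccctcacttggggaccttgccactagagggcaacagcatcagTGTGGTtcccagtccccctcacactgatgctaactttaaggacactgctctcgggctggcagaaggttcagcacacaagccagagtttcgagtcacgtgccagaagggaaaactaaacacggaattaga
S100a11 (chr3:93520246-93520545, plus strand): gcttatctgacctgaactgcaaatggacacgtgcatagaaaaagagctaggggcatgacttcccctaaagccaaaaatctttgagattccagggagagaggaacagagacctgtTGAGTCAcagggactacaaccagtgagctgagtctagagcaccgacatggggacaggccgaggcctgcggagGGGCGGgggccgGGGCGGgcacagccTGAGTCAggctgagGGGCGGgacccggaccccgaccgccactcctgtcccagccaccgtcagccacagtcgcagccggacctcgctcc
Capg (chr6:72549397-72549696, plus strand): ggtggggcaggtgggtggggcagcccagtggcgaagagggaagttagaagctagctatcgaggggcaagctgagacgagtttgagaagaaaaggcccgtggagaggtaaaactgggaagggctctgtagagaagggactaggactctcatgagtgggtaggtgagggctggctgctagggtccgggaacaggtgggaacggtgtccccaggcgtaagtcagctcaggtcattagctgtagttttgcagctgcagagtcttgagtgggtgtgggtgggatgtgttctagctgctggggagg
The windows of S100a4 and Capg held none of the 4 letter strings. That of S100a6 held 3 RUNX matches, starting at -217, -145 and -79 with the start base as 0, and that of S100a11 held 2 AP-1 matches, at -136 and -38, and 3 GC boxes. Among 32851 promoter windows of the same length, 7.81% held the AP-1 letters, 13.7% the T-box letters, 35.7% the GC box and 16.8% the RUNX letters. Anxa2 held 1 AP-1 match at -95 with 3 GC boxes, Anxa1 held 1 T-box match at -55, Lgals3 held 2 GC boxes and Crip1 held 3. A match of letters is a description of the window and not a bound site.

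Of 16587 deposited barcodes, 16532 cells passed the limits on genes and mitochondrial share: 5662 from liver, 5384 from spleen and 5486 from lymph node. Liver libraries were the deepest, with medians of 3592 and 2880 UMIs per cell against 1470 to 1731 in the other organs. The 5 T cell markers found in the gene list (Cd3d, Cd3e, Cd3g, Zbtb16 and Thy1) summed to 5412 to 6507 CPM (a gene's UMIs scaled to a common library total) in every library, while CD8 markers stayed at 7.10 or less. Red cell genes reached 558 and 866 CPM in the liver libraries and at most 0.280 elsewhere; they were left out of all denominators, with ribosomal genes. The lymph node libraries held no Xist UMI and 1362 and 1579 UMIs of Y-linked genes, while the liver and spleen libraries held 5401 to 10404 Xist UMIs and none from the Y. Sex and lymph node therefore cannot be told apart in these data, for any gene below. Pairs of libraries shared 6 to 20 barcodes, and libraries of 1 organ differed by more than sampling noise.

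S100a4, a partner of non-muscle myosin in cell movement, was the S100 gene that separated lymph node most. It measured 166 and 153 CPM in the liver libraries, 135 and 135 in those of spleen and 587 and 470.3 in those of lymph node over all cells. Both lymph node libraries stood far above every library of the other organs, while liver and spleen lay close together. The log2 fold was -1.79 (SE 0.12) for liver over lymph node, -1.95 (SE 0.12) for spleen over lymph node and 0.16 (SE 0.12) for liver over spleen. The share of cells with an S100a4 UMI was 22.6 and 18.9% in the liver libraries, 11.4 and 11.5% in those of spleen and 40.9 and 34.3% in those of lymph node. The liver lead over spleen in that share shrank once each cell was thinned to 1000 UMIs, to 7.78 and 7.47% in the liver libraries, 6.23 and 6.96% in those of spleen and 27.9 and 26.6% in those of lymph node. All cells were sorted iNKT cells, so no cell type lacking the gene was at hand to show how much of such a share free RNA gives. S100a4 overlaps Gm42674 on the same strand; that gene was listed with no UMI in any library.

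S100a6, calcyclin, had a graded order instead. It measured 655 and 713 CPM in the liver libraries, 858 and 1089 in those of spleen and 1869 and 1746 in those of lymph node. Liver was lowest, spleen intermediate and lymph node highest, with no overlap between organs, although spleen sample 2 lay well above spleen sample 1. The log2 folds were -0.59 (SE 0.13) for liver over spleen, -1.46 (SE 0.13) for liver over lymph node and -0.87 (SE 0.13) for spleen over lymph node. In thinned cells the share with an S100a6 UMI put liver (28.8 and 29.2%) and spleen (24.2 and 31.7%) together, below lymph node (58.6 and 58.9%). The gap between liver and spleen in CPM was thus not seen in the share of cells.

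The other pair of the chromosome did not move as 1 unit. S100a11, the partner of annexin A1, measured 895 and 977 CPM in the liver libraries, 1008 and 1029 in those of spleen and 1970.4 and 1691 in those of lymph node, so that liver and spleen lay close and lymph node stood apart, with log2 folds of -1.03 (SE 0.12) for liver and -0.83 (SE 0.12) for spleen over lymph node. S100a10, the partner of annexin A2, measured 1572 and 1626 CPM in the liver libraries, 1548 and 1350.3 in those of spleen and 1950.4 and 1653 in those of lymph node. Its lymph node libraries were the highest, but sample 2 lay only just above liver, and the log2 fold was -0.30 (SE 0.12) for spleen over lymph node and -0.23 (SE 0.12) for liver over lymph node. S100a11 has near-identical sequence in 2 other genes that were not in the gene list, so reads shared with them could not be split.

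Anxa1 and Anxa2 differed little between organs. Anxa1 measured 52.7 and 66.9 CPM in the liver libraries, 46.8 and 44.7 in those of spleen and 57.8 and 53.2 in those of lymph node, with liver and lymph node overlapping and both spleen libraries just below. Anxa2 measured 87.5 and 103 CPM in the liver libraries, 109 and 96.7 in those of spleen and 113 and 114 in those of lymph node, with liver and spleen overlapping and the lymph node libraries marginally above the others. The largest log2 folds of these 2 genes were -0.31 (SE 0.12) for Anxa2, liver over lymph node, and 0.31 (SE 0.15) for Anxa1, liver over spleen. Between 5.31% and 15.3% of cells had a UMI of either gene in any library, so most cells gave no information on them. Anxa1 overlaps 1500015L24Rik and Anxa2 overlaps Gm16144, each on the opposite strand and each with no UMI; Anxa2 also holds Mir3109.

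Both galectins followed the order liver, spleen, lymph node without overlap. Lgals3 measured 73.6 and 88.5 CPM in the liver libraries, 189 and 165 in those of spleen and 489.7 and 563 in those of lymph node, and its log2 folds were -1.20 (SE 0.13), -2.76 (SE 0.13) and -1.56 (SE 0.12) for liver over spleen, liver over lymph node and spleen over lymph node. Lgals1 measured 957 and 1229 CPM in the liver libraries, 1637 and 1697 in those of spleen and 2063 and 1940.0 in those of lymph node, with folds of -0.69 (SE 0.13), -0.93 (SE 0.13) and -0.25 (SE 0.13) in the same order. In CPM the wider step of Lgals1 lay between liver and spleen. In thinned cells the share with an Lgals1 UMI was 38.8 and 45.5% in the liver libraries, 41.0 and 45.3% in those of spleen and 61.9 and 63.4% in those of lymph node, so that by share liver and spleen overlapped and lymph node stood above both.

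Capg, the actin filament capping protein, had the widest range of the 10 genes. It measured 64.5 and 89.3 CPM in the liver libraries, 157 and 165 in those of spleen and 953 and 986 in those of lymph node. The 2 lymph node libraries were close to each other and far above every spleen library, and the log2 folds were -3.72 (SE 0.14) for liver, -2.57 (SE 0.14) for spleen over lymph node and -1.15 (SE 0.14) for liver over spleen. In thinned cells 43.2 and 48.2% of lymph node cells had a Capg UMI, against 7.93 and 8.65% in spleen and 3.32 and 4.77% in liver. Crip1 varied little, with lymph node marginally below the other organs, at 1316 and 1432 CPM in the liver libraries, 1365 and 1502 in those of spleen and 1263 and 1279.9 in those of lymph node, with log2 folds of -0.14 (SE 0.12) for liver over spleen, 0.05 (SE 0.12) for liver over lymph node and 0.19 (SE 0.12) for spleen over lymph node.

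**Figure D1:**
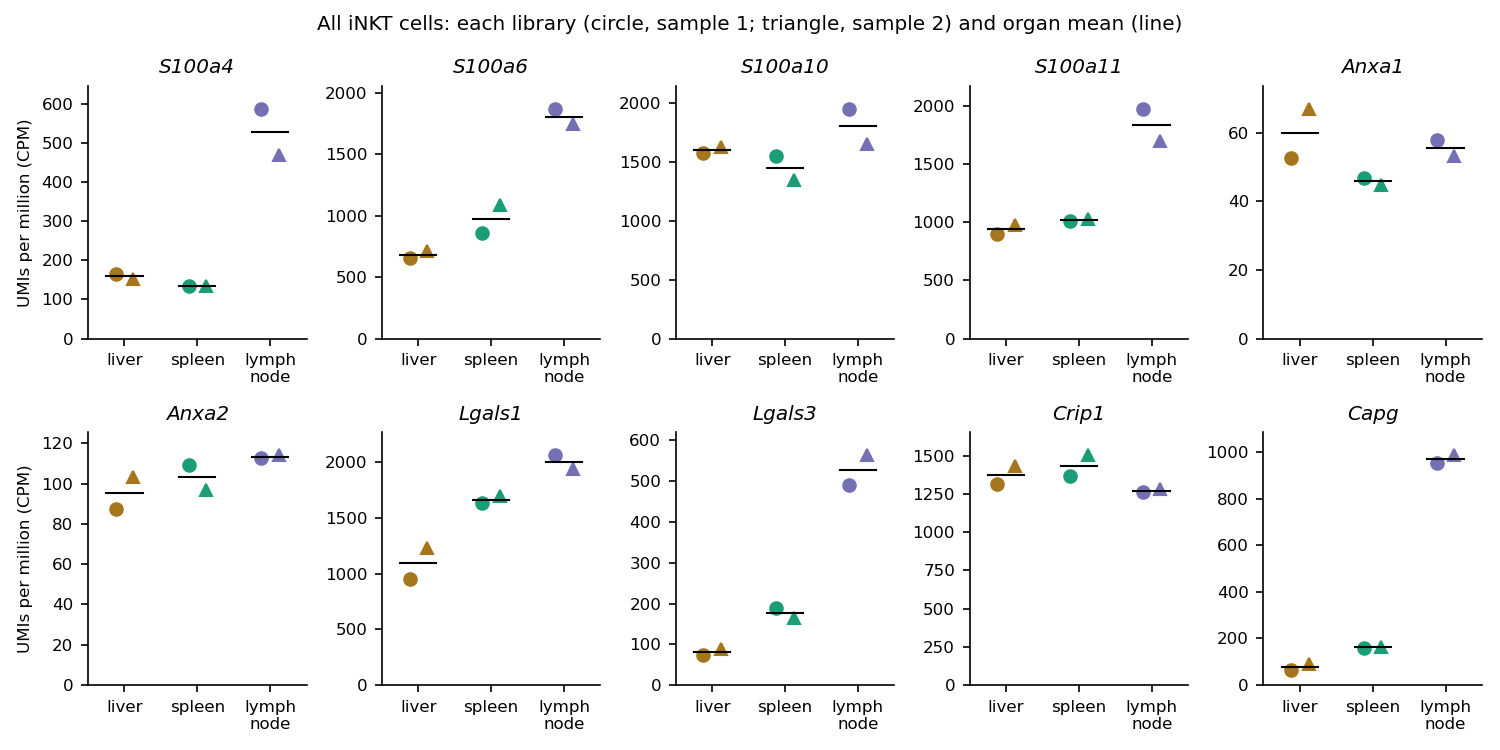
CPM of each of the 10 genes in all iNKT cells of each library (vertical axis, from 0) by organ (horizontal axis); circles are sample 1, triangles sample 2 and lines the mean of 2 libraries. S100a4, S100a11, Lgals3 and Capg stand apart in lymph node, S100a6 and Lgals1 climb from liver to lymph node, and Anxa1, Anxa2, S100a10 and Crip1 are close to level.

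Over all 10249 genes tested, the shares called by edgeR's quasi-likelihood test at an adjusted p below 0.05 were 25.9% for liver against spleen, 37.6% for liver against lymph node and 18.2% for spleen against lymph node, and the shares called lower in the organ named first were 13.1%, 19.6% and 10.3%. The median log2 fold of the 10 genes was -0.20, -0.98 and -0.56, beside 0.02, 0.01 and 0.00 over all genes tested. The genes were chosen on these contrasts, so nothing is read from those medians. In a bulk sum, more cells that carry a transcript and more transcript per cell cannot be told apart, which the shares of thinned cells above address only in part.

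Macrophages and monocytes also carry S100a4, S100a6, Lgals3 and Capg. The 8 myeloid markers summed to 5.96 and 25.1 CPM in the liver libraries, 3.90 and 2.24 in those of spleen and 13.8 and 119 in those of lymph node, with S100a9 at 0 and S100a8 at 1 UMI over all libraries. B cell markers summed to 2.52 to 16.2 CPM, NK markers to 0 to 7.43 and hepatocyte markers to 1.65 to 4.05. Lymph node sample 1, with the lower myeloid sum of that organ, had S100a4 and S100a6 above and Lgals3 and Capg below the values of sample 2. Without the 337 cells (2.04%) that had a UMI of a myeloid or B cell marker, the log2 fold for liver over lymph node was -3.73 for Capg, -2.77 for Lgals3 and -1.78 for S100a4.

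Since organs differ in their mix of iNKT subsets, the 10 genes were next read in cells with Il2rb UMIs and none of Ccr6 or Il23r. The liver libraries held 2221 and 2128 such cells, those of spleen 854 and 620 and those of lymph node 284 and 293. Lymph node had a further 58 cells with UMIs of both kinds, beside 13 for liver and 1 for spleen. A cell with no Ccr6 or Il23r UMI need not lack the transcripts, so this set can still hold iNKT17 cells. Whether its subset mix was the same across organs was not tested. In these Il2rb cells Capg measured 59.1 and 80.7 CPM in the liver libraries, 131 and 148 in those of spleen and 683 and 679.8 in those of lymph node. The organ order was the same as over all cells, with log2 folds of -3.37 (SE 0.16) for liver and -2.31 (SE 0.16) for spleen over lymph node. S100a4 measured 148 and 139 CPM in the liver libraries, 108 and 132 in those of spleen and 406 and 273 in those of lymph node, with lymph node sample 1 well above sample 2 and both above every other library. Its folds were -1.32 (SE 0.16) for liver and -1.53 (SE 0.18) for spleen over lymph node, beside -1.79 and -1.95 over all cells.

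Lgals3 in Il2rb cells was 63.9 and 71.0 CPM in the liver libraries, 155 and 155 in those of spleen and 365 and 252 in those of lymph node, again in the order liver, spleen, lymph node without overlap. Its fold for liver over lymph node was -2.27 (SE 0.17), and -1.01 (SE 0.17) for spleen over lymph node. S100a6 measured 629 and 670.0 CPM in the liver libraries, 816 and 962 in those of spleen and 1384 and 1229 in those of lymph node and kept 3 separate levels, with folds of -0.51 (SE 0.13) for liver over spleen and -1.09 (SE 0.13) for liver over lymph node. S100a11 (870.0 and 949.9 CPM in the liver libraries, 894 and 914 in those of spleen and 1695 and 1565 in those of lymph node) had liver and spleen overlapping and lymph node apart, with a fold of -0.92 (SE 0.13) for liver over lymph node. Lgals1 (931 and 1163 CPM in the liver libraries, 1635 and 1678 in those of spleen and 2005 and 1727 in those of lymph node) set liver below the other organs in CPM, with -0.72 (SE 0.13) for liver over spleen. Its share of thinned cells was 39.1 and 44.8% in the liver libraries, 39.7 and 45.3% in those of spleen and 60.9 and 56.7% in those of lymph node, with liver and spleen overlapping.

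Anxa1 gave another picture than over all cells. In Il2rb cells it measured 53.6 and 67.5 CPM in the liver libraries, 60.8 and 42.4 in those of spleen and 90.7 and 87.1 in those of lymph node, so that both lymph node libraries were above all 4 others, with a log2 fold of -0.63 (SE 0.23) for liver and -0.78 (SE 0.26) for spleen over lymph node. Anxa2 (85.4 and 102 CPM in the liver libraries, 131 and 115 in those of spleen and 146 and 102 in those of lymph node), S100a10 (1563 and 1586 CPM in the liver libraries, 1447 and 1226 in those of spleen and 1723 and 1488 in those of lymph node) and Crip1 (1315 and 1422 CPM in the liver libraries, 1457 and 1729.5 in those of spleen and 1389 and 1381 in those of lymph node) overlapped between at least 1 pair of organs. Of 8335 genes tested in these cells, 14.9%, 16% and 3.9% were called for liver over spleen, liver over lymph node and spleen over lymph node, and 7.47%, 9.18% and 2.72% were called lower in the first organ.

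**Figure D2:**
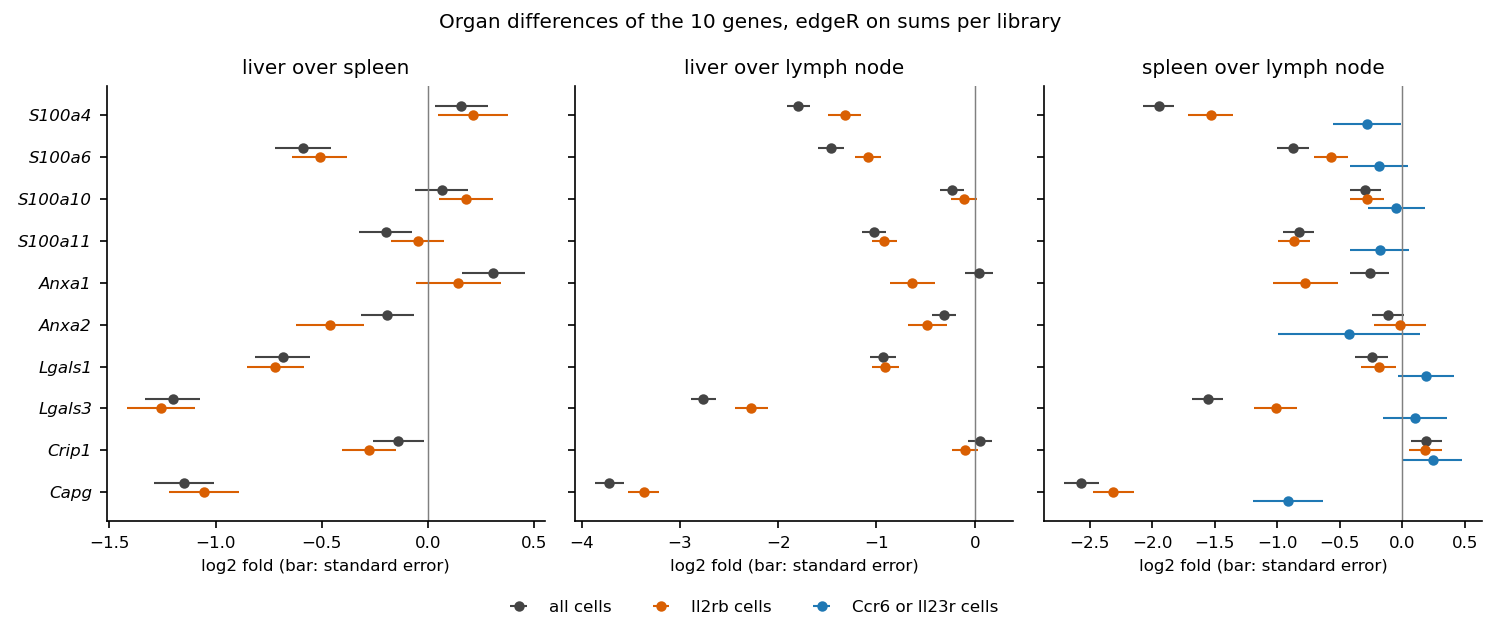
Log2 fold of each of the 10 genes between organs (horizontal axis; bars are 1 standard error) in all cells, in Il2rb cells and in Ccr6 or Il23r cells, from edgeR fits on sums per library. Capg, Lgals3 and S100a4 lie farthest left against lymph node in all cells and in Il2rb cells, and near or closer to 0 in Ccr6 or Il23r cells; liver had under 10 cells of the last kind per library and has no point.

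Cells with Ccr6 or Il23r UMIs and no Il2rb UMI numbered 24 and 10 in spleen, 343 and 424 in lymph node and only 5 and 6 in liver, which was left out. Both lymph node libraries and both spleen libraries carried S100a4 at similar levels in them, 959 and 905 CPM in spleen and 1179 and 862 in lymph node, overlapping, with a log2 fold of -0.29 (SE 0.27). Lgals3 measured 1503 and 488 CPM in spleen and 998 and 1027 in lymph node, with spleen libraries on either side of lymph node. Capg measured 719 and 1184 CPM in spleen and 1399 and 1413 in lymph node, which did not overlap, with a fold of -0.92 (SE 0.28).

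S100a6 measured 2789 and 3622 CPM in spleen and 3156 and 2916 in lymph node, S100a11 2179 and 2438 CPM in spleen and 2367 and 2130.5 in lymph node and S100a10 2810.4 and 1602 CPM in spleen and 2417 and 2024 in lymph node. Lgals1 measured 4401 and 2438 CPM in spleen and 2908 and 2858 in lymph node, and Anxa2 109 and 139 CPM in spleen and 133 and 145 in lymph node. All 5 of these genes overlapped between the organs. Crip1 was higher in both spleen libraries (1874 and 2159 CPM) than in lymph node (1482 and 1431), with a fold of 0.24 (SE 0.24). Anxa1 had 1 and 0 UMIs in the spleen sums and was not among the 9 genes fitted. Of 4682 genes tested, 0.577% were called, and their median log2 fold was -0.16. The folds given for Ccr6 or Il23r cells, spleen over lymph node, stand beside that median. The spleen sums rest on 24 and 10 cells, so few calls do not show that the organs were alike.

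Set against Il2rb cells of the same libraries, with cells that had UMIs of Ccr7, Gzma, Mki67 or Top2a left out of both, Ccr6 or Il23r cells had higher values for 9 of the 10 genes. The log2 fold was 1.97 (SE 0.31) for Lgals3, 1.94 (SE 0.16) for S100a4, 1.39 (SE 0.24) for S100a6, 1.33 (SE 0.11) for Capg and 0.88 (SE 0.23) for Lgals1. For S100a11 it was 0.69 (SE 0.10), for Anxa2 0.55 (SE 0.19), for S100a10 0.51 (SE 0.10) and for Crip1 0.16 (SE 0.11). Anxa1 went the other way, at -1.26 (SE 0.29). Fitted in each organ alone, S100a4 gave 3.11 (SE 0.30) in spleen and 1.60 (SE 0.12) in lymph node, Capg 2.71 (SE 0.30) and 1.09 (SE 0.10), Lgals3 2.85 (SE 0.27) and 1.70 (SE 0.12), S100a6 1.81 (SE 0.17) and 1.27 (SE 0.08), S100a11 1.19 (SE 0.18) and 0.48 (SE 0.08), and Lgals1 1.33 (SE 0.16) and 0.76 (SE 0.08). In the same order S100a10 gave 0.74 (SE 0.17) and 0.47 (SE 0.08), Crip1 0.38 (SE 0.19) and 0.18 (SE 0.09), and Anxa1 -1.74 (SE 1.34) and -1.36 (SE 0.30). Anxa2, at 0.28 (SE 0.60) and 0.49 (SE 0.23), had the smaller fold in spleen. The difference between organs was not tested, and it holds the organ difference of Il2rb cells on which the genes were chosen. Of 7591 genes tested in this fit, 9.83% were called, 4.19% higher and 5.64% lower. Ccr6 or Il23r cells had more UMIs per cell in every spleen and lymph node library (medians of 1741 to 2694 against 1310 to 1728 in the Il2rb cells of this fit).

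**Figure D3:**
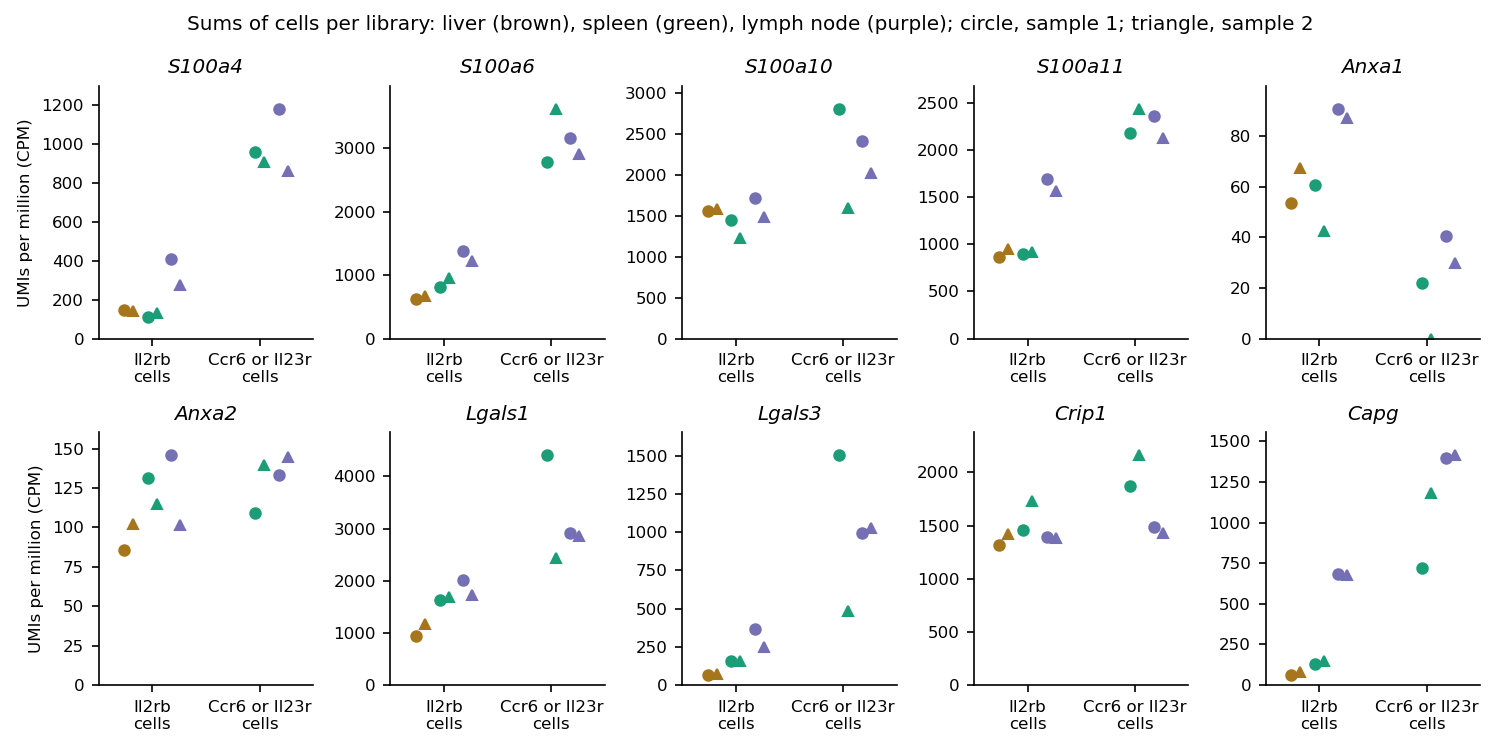
CPM of the 10 genes (vertical axis, from 0) in Il2rb cells and in Ccr6 or Il23r cells of each library; colours are organs, circles sample 1 and triangles sample 2. S100a4, S100a6, S100a11, Lgals1, Lgals3 and Capg have all 4 Ccr6 or Il23r sums above all 6 Il2rb sums. Anxa1 has its highest values among lymph node Il2rb cells.

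Most spleen and lymph node cells, 67.8% to 76.2% of each library, had no UMI of Il2rb, Ccr6 or Il23r, which does not show that they lacked the transcripts. In these cells Capg measured 69.1 and 103 CPM in the liver libraries, 160.5 and 166 in those of spleen and 896 and 925 in those of lymph node and S100a4 165 and 175 CPM in the liver libraries, 134 and 132 in those of spleen and 489 and 402 in those of lymph node. Both genes kept the lymph node libraries apart there. Those values are close to the ones over all cells.

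The remaining cell sets were not used to choose the genes, but Il2rb cells, to which they were compared, were, so those folds are a description with no test. Cells with a Ccr7 UMI, the receptor for entry into lymph nodes, and without UMIs of Il2rb, Ccr6, Il23r, Gzma, Mki67 or Top2a numbered 64 and 60 per spleen library, 78 and 61 per lymph node library, and too few (5 and 8) in liver. The reference was Il2rb cells without any of the other markers. In spleen, S100a6 measured 684 and 870.5 CPM in the Il2rb cells and 2013 and 2034 CPM in the Ccr7 cells. In lymph node it measured 1338 and 1192 CPM in the Il2rb cells and 1273 and 1225 CPM in the Ccr7 cells. The 2 spleen libraries both moved up by a wide margin, and the 2 lymph node libraries hardly moved.

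S100a4 measured 89.7 and 110.2 CPM in spleen Il2rb cells and 257 and 266 in spleen Ccr7 cells. In lymph node it was 407 and 271 in Il2rb cells and 259 and 121 in Ccr7 cells, so it was higher in Ccr7 cells of both spleen libraries and lower in those of both lymph node libraries. Lgals1 measured 1332 and 1459.7 against 3586 and 3336 CPM in spleen, and 1760.0 and 1602 against 1745 and 2001 in lymph node. S100a11 measured 852 and 873 against 1829 and 1663 CPM in spleen, and 1668 and 1569 against 1532 and 1419 in lymph node. Ccr7 cells of both organs thus had S100a11 levels near those of lymph node Il2rb cells.

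Fitted in spleen alone, the log2 fold of Ccr7 over Il2rb cells was above 0 for 9 of the 10 genes, with a median of 1.20 beside 0.01 over all genes. It was 1.37 (SE 0.12) for S100a6, 1.28 (SE 0.12) for Lgals1, 0.99 (SE 0.12) for S100a11 and 1.38 (SE 0.25) for S100a4. It was 1.55 (SE 0.21) for Lgals3, 1.44 (SE 0.26) for Anxa2, 1.12 (SE 0.24) for Capg, 0.53 (SE 0.12) for S100a10 and 0.47 (SE 0.12) for Crip1, and Anxa1 was at -1.57 (SE 0.72). In lymph node alone the values were -0.81 (SE 0.23) for S100a4, -0.05 (SE 0.12) for S100a6, -0.17 (SE 0.11) for S100a11, -0.06 (SE 0.11) for S100a10, -0.13 (SE 0.12) for Crip1 and -1.34 (SE 0.48) for Anxa1, all below 0. They were 0.43 (SE 0.35) for Anxa2, 0.26 (SE 0.15) for Capg, 0.11 (SE 0.21) for Lgals3 and 0.11 (SE 0.11) for Lgals1, above 0, so the genes had no single direction there.

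The difference between these folds, spleen minus lymph node, was added after the data were seen. It contains the organ difference of Il2rb cells, on which the genes were chosen, so it is given as a description, with no test. It was 2.19 (SE 0.34) for S100a4, 1.42 (SE 0.16) for S100a6, 1.18 (SE 0.14) for Lgals1, 1.15 (SE 0.15) for S100a11 and 1.47 (SE 0.28) for Lgals3, on the log2 scale. It was 0.98 (SE 0.40) for Anxa2, 0.84 (SE 0.27) for Capg, 0.60 (SE 0.16) for Crip1, 0.58 (SE 0.15) for S100a10 and -0.24 (SE 0.89) for Anxa1. The difference of Lgals3 was 0.64 without spleen sample 1, and that of Crip1 0.38 without lymph node sample 1.

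**Figure D4:**
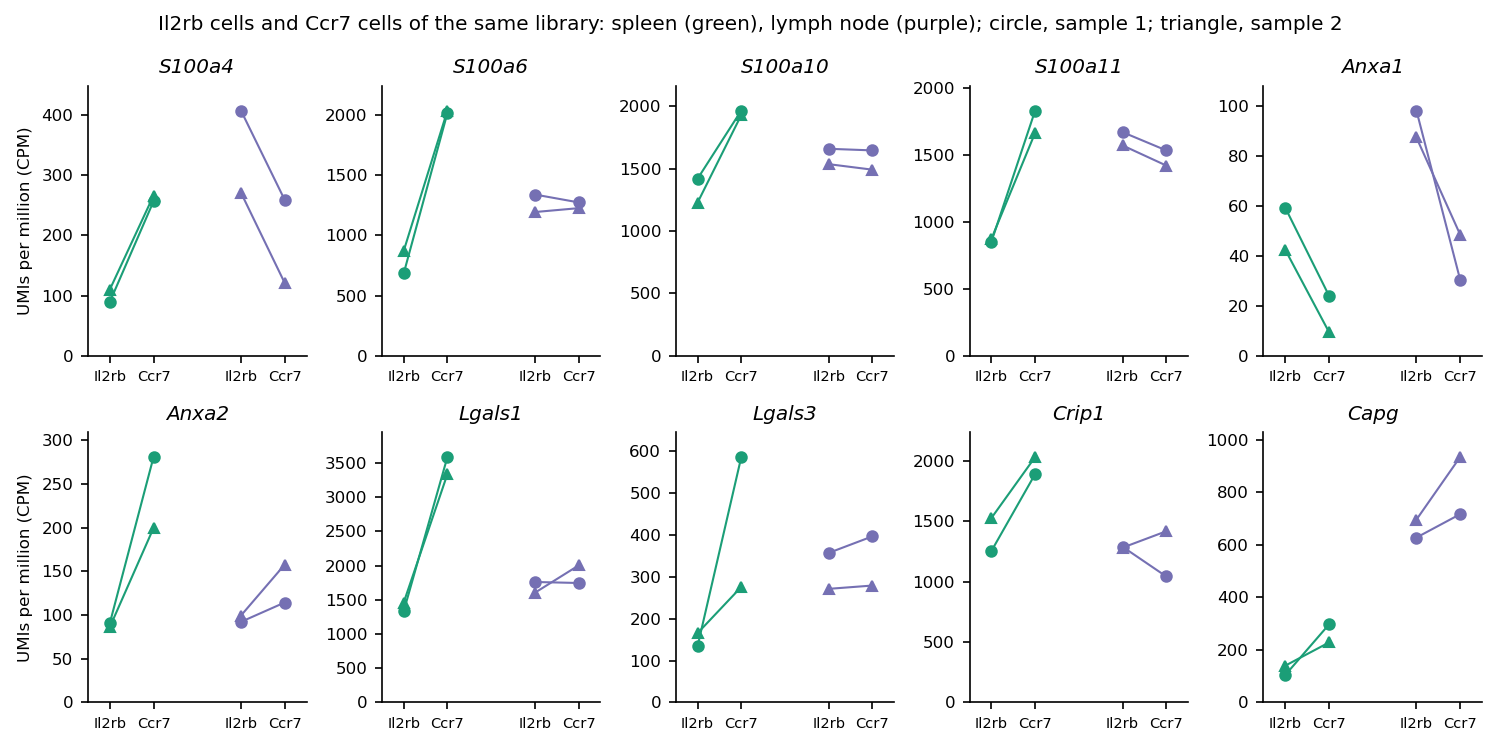
CPM of the 10 genes (vertical axis, from 0) in Il2rb cells and Ccr7 cells of the same library, joined by a line; green is spleen, purple lymph node, circles sample 1 and triangles sample 2. S100a6, S100a11 and Lgals1 climb in both spleen libraries and change less in lymph node, and S100a4 has opposite slopes in the 2 organs.

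Ccr7 cells had more UMIs per cell than Il2rb cells (medians of 2668 and 2274 against 1728 and 1532 in spleen, and 2228 and 1619 against 1538 and 1310 in lymph node). With cells thinned to 1000 UMIs, the difference between organs was 1.64 for S100a6, 2.56 for S100a4 and 1.03 for Lgals3. Pooled over both organs, the log2 fold was 0.97 (SE 0.21) for Anxa2, 0.41 (SE 0.10) for S100a11, 0.53 (SE 0.14) for Capg and -1.35 (SE 0.40) for Anxa1. The pooled folds of the other genes are not listed here, so these values are a selection and do not describe the whole list. Over the 10 genes the pooled median was 0.47, beside -0.05 over all genes tested. Pooling can join unlike organs, as for S100a11, at 0.99 in spleen alone and -0.17 in lymph node alone. Without spleen sample 1 the fold of Anxa2 was 0.72, that of S100a11 0.19 and that of Capg 0.32.

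Between Ccr7 cells of the 2 organs, 8 of the 9 genes fitted had a fold above 0, that is, higher in spleen, and Capg had one below 0. The genes were chosen on organ differences, so the values are a description. Spleen over lymph node was 0.87 (SE 0.17) for Lgals1, 0.85 (SE 0.36) for Anxa2, 0.67 (SE 0.18) for Crip1 and 0.66 (SE 0.18) for S100a6. Capg, at 297 and 228 CPM in spleen and 716 and 934 in lymph node, was lower in spleen at -1.64 (SE 0.24). S100a4, at 257 and 266 CPM in spleen and 259 and 121 in lymph node, overlapped between the organs, with 0.33 (SE 0.32). S100a11 gave 0.21 (SE 0.18), Lgals3 0.31 (SE 0.25) and S100a10 0.28 (SE 0.18). In this set 4.7% of 2212 genes were called.

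Dividing cells, those with a Mki67 or Top2a UMI and none of Ccr6, Il23r, Ccr7 or Gzma, numbered 230 and 203 in the liver libraries, 99 and 130 in those of spleen and 70 and 78 in those of lymph node. In them Anxa2 measured 117 and 159 CPM in the liver libraries, 309 and 131 in those of spleen and 199.7 and 142 in those of lymph node, against 73.0 and 76.2 CPM in the liver libraries, 90.7 and 86.2 in those of spleen and 92.2 and 99.4 in those of lymph node in Il2rb cells. It was higher in dividing cells of all 6 libraries, with a log2 fold of 0.98 (SE 0.11). Lgals1 measured 1145 and 1575 CPM in the liver libraries, 2757 and 2529 in those of spleen and 2831 and 2455 in those of lymph node against 814 and 1031 CPM in the liver libraries, 1332 and 1459.7 in those of spleen and 1760.0 and 1602 in those of lymph node, also higher in 6 of 6 libraries, at 0.70 (SE 0.18). Crip1 (1537 and 1661 CPM in the liver libraries, 2333 and 2118 in those of spleen and 1854 and 1798 in those of lymph node against 1237 and 1325 CPM in the liver libraries, 1255 and 1529 in those of spleen and 1290.2 and 1283 in those of lymph node) did likewise, at 0.49 (SE 0.08).

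The folds of these 3 genes were above 0 without each library in turn, and with cells thinned to 1000 UMIs that of Anxa2 was 0.83. Dividing cells had more UMIs per cell, with medians of 2302 to 4290 against 1310 to 3657. S100a4 was at 0.59 (SE 0.13), Capg at 0.36 (SE 0.10), S100a6 at 0.39 (SE 0.19), S100a10 at 0.09 (SE 0.08), S100a11 at 0.14 (SE 0.08), Lgals3 at 0.30 (SE 0.29) and Anxa1 at -0.41 (SE 0.16).

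The difference of this step between liver and spleen, which holds the organ difference of Il2rb cells, was widest for S100a6, at -0.66 (SE 0.12), and -0.41 without spleen sample 1. For liver minus lymph node it was widest for Anxa1, at 1.00 (SE 0.43). For spleen minus lymph node it was widest for S100a4, at 0.70 (SE 0.25).

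Among dividing cells, Capg and Lgals3 kept the order of organs, lymph node highest and liver lowest, while S100a6 and Lgals1 differed little between spleen and lymph node. Capg gave -3.29 (SE 0.20), Lgals3 -2.55 (SE 0.25), S100a6 -1.29 (SE 0.16) and S100a4 -1.21 (SE 0.20) for liver over lymph node, on the log2 scale, given as a description. For liver over spleen, Capg gave -1.45 (SE 0.23), Lgals3 -1.36 (SE 0.27), S100a6 -1.07 (SE 0.16), Lgals1 -0.98 (SE 0.16) and Crip1 -0.50 (SE 0.15). For spleen over lymph node, Capg gave -1.84 (SE 0.20), Lgals3 -1.19 (SE 0.25), S100a4 -1.07 (SE 0.22), S100a6 -0.23 (SE 0.16) and Lgals1 0.01 (SE 0.16). For the same pairs (liver over lymph node, liver over spleen, spleen over lymph node) 13.2%, 9.1% and 1.99% of 4935 genes were called. These cells come from the same libraries on which the genes were chosen and are not independent of them.

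**Figure D5:**
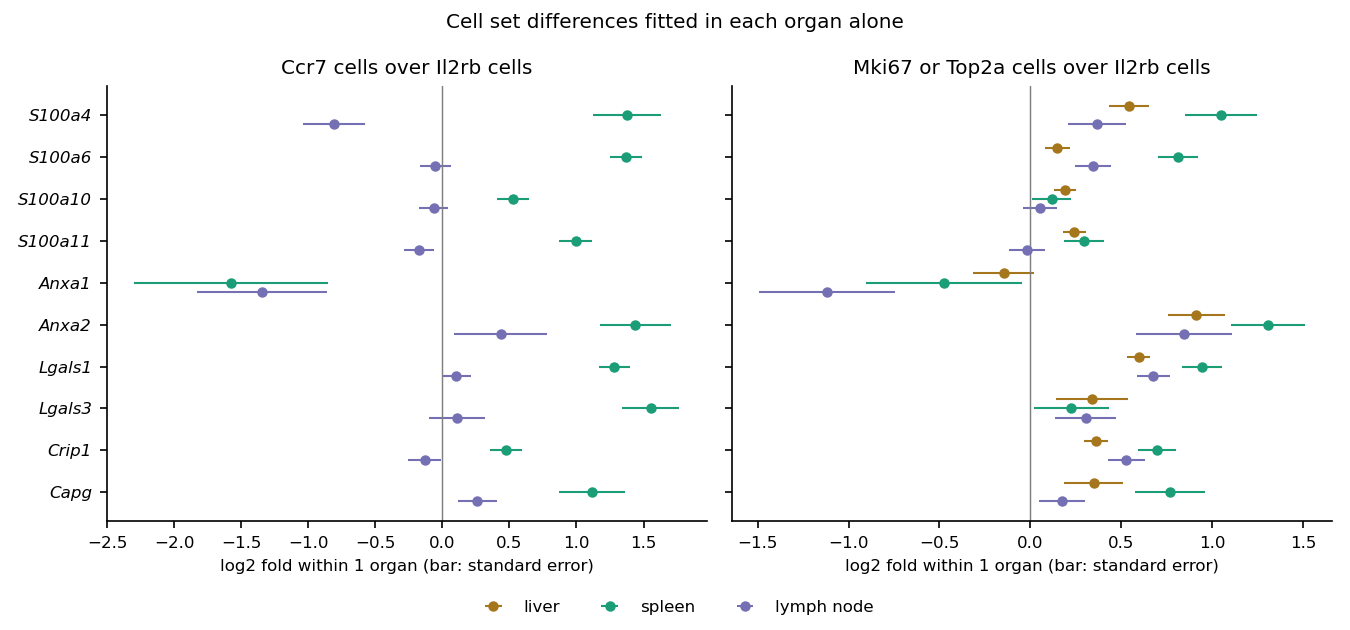
Log2 fold of each of the 10 genes (horizontal axis; bars are 1 standard error) for Ccr7 cells over Il2rb cells and for Mki67 or Top2a cells over Il2rb cells, fitted in each organ alone. Spleen points lie to the right of lymph node points for 9 of 10 genes in Ccr7 cells, and Anxa2, Lgals1 and Crip1 lie right of 0 in all 3 organs in dividing cells.

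Cells with Gzma and Il2rb UMIs, granzyme A being a cytotoxic protease, were frequent enough only in liver (99 and 80 cells) and spleen sample 2 (12 cells). Anxa2 measured 100.2 and 276 CPM in the liver Gzma cells against 73.0 and 76.2 in liver Il2rb cells. Its log2 fold over all libraries was 1.21 (SE 0.21), and it was 0.52 without liver sample 2 and 1.21 with thinned cells. S100a6 was 1065 and 1319 CPM against 567 and 637 in liver, a log2 fold of 0.99 (SE 0.08) there. In liver alone Lgals3 gave 1.55 (SE 0.25), S100a4 0.88 (SE 0.17), Crip1 0.50 (SE 0.08) and Lgals1 0.48 (SE 0.08), from 2 libraries and few residual degrees of freedom. Anxa2 gave 1.22 (SE 0.24) there and Capg 0.98 (SE 0.24). S100a11 gave 0.13 (SE 0.09), Anxa1 0.06 (SE 0.28) and S100a10 -0.09 (SE 0.08). In the 12 Gzma cells of spleen sample 2 Lgals3 had 0 UMIs. The folds in spleen were -0.42 (SE 0.36) for Lgals1, -0.23 (SE 0.33) for Crip1, -0.03 (SE 0.39) for S100a6, 0.41 (SE 0.92) for S100a4 and 0.90 (SE 0.97) for Anxa2. The median over all genes in that fit was -0.33, so a fold below 0 there need not mean a lower CPM. S100a6 measured 961 CPM in the Gzma cells and 870 in the Il2rb cells of spleen sample 2. These cells come from 1 library and are too few to show whether spleen shared the liver values.

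A further reference was added after the data were seen. It was the cells with no UMI of Il2rb, Ccr6, Il23r, Ccr7, Gzma, Mki67 or Top2a, which numbered 500 and 650 in the liver libraries, 1687 and 1839 in those of spleen, and 1838 and 1966 in those of lymph node. Ccr7 cells, and dividing cells without an Il2rb UMI (40 and 31 for liver, 65 and 95 for spleen, 56 and 62 for lymph node), were each fitted against them with library as a block. These reference cells are 8480 of all 16532 cells and so took part in the choice of the genes through the organ sums, and the values of the 10 genes are again a description. Anxa2 measured 82.8 and 67.7 CPM in the liver libraries, 74.8 and 73.0 in those of spleen and 97.9 and 102 in those of lymph node in the reference. It measured 281 and 199.6 CPM in Ccr7 cells of spleen and 114 and 158 in those of lymph node. In the dividing cells it measured 41.3 and 209.6 CPM in the liver libraries, 225 and 118 in those of spleen and 133 and 155 in those of lymph node, so it was higher there in 5 of 6 libraries and lower in liver sample 1, where it rested on 4 UMIs. Crip1 measured 1179.5 and 1276 CPM in the liver libraries, 1171 and 1270.2 in those of spleen and 1159 and 1181 in those of lymph node in the reference and 1736 and 1849 CPM in the liver libraries, 2133 and 2049.6 in those of spleen and 1790.0 and 1756 in those of lymph node in the dividing cells, higher in 6 of 6 libraries.

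In Ccr7 cells over this reference the log2 fold was 1.08 (SE 0.29) for Anxa2, 0.69 (SE 0.26) for Lgals1, 0.47 (SE 0.42) for Lgals3, 0.43 (SE 0.31) for S100a6 and 0.34 (SE 0.09) for Crip1. Crip1 measured 1893 and 2034 CPM in Ccr7 cells of spleen and 1044 and 1419 in those of lymph node, higher than the reference in 3 of 4 libraries and lower in lymph node sample 1. S100a11 was at 0.24 (SE 0.20), S100a10 at 0.12 (SE 0.09), Capg at 0.11 (SE 0.24) and S100a4 at -0.19 (SE 0.45). Without spleen sample 1 S100a6 was at 0.12 and Lgals1 at 0.45. Of 3908 genes edgeR called 4.2%, 1.38% higher and 2.81% lower. Of the other genes on the 3 lists, 1 of 15 partners was lower and none higher, 4 of 16 effector genes were higher and 7 lower, and 5 of 8 homing genes without Ccr7 were higher and none lower. The calls that held under every alternative run included Klf2 (1.37, adjusted p 2.37e-11) and Cxcr6 (-0.90, adjusted p 2.30e-08).

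In the dividing cells over this reference the log2 fold was 0.63 (SE 0.07) for Crip1, 0.78 (SE 0.24) for Anxa2, 0.64 (SE 0.22) for Lgals1, 0.38 (SE 0.32) for S100a4 and 0.34 (SE 0.26) for S100a6. It was 0.00 (SE 0.07) for S100a10, -0.01 (SE 0.17) for S100a11, -0.05 (SE 0.21) for Capg and -0.17 (SE 0.39) for Lgals3, all close to 0 beside their standard errors. With thinned cells Crip1 was at 0.46 and Anxa2 at 0.83. Median UMIs per cell were 1393 to 2929 in the reference and 2147 to 3328 in these dividing cells. Of 3908 genes edgeR called 20.9%, 11.9% higher and 8.98% lower. Among the lists 1 of 15 partners was higher and 1 lower, 3 of 16 effector genes were higher and 4 lower, and 2 of 9 homing genes were lower. The calls that held under every alternative run included Vim (1.04, adjusted p 8.12e-06) and Il7r (-0.80, adjusted p 8.13e-09).

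Within single libraries, across cells thinned to 1000 UMIs, S100a6 and Lgals1 went together most, with a mean Pearson r of 0.32 over 6 libraries (0.16 to 0.46). S100a6 with Crip1 and Lgals1 with Crip1 both gave 0.22, and S100a4 with its neighbour S100a6 gave 0.18. S100a10 and Anxa2, whose proteins form a complex, gave 0.05, and r of Anxa1 with Anxa2 was 0.02. Values across cells share depth and few UMIs, and low values of r in sparse counts are no finding. Over 23 sums of cell set and library and 3334 genes with at least 50 CPM, the genes outside the list with a pattern most like S100a4 were Ccr6 (r 0.82), Il23r (0.82) and Rexo2 (0.81). Ccr6 and Il23r define some of those sums. For S100a6 they were Emp3 (0.88), Gpx1 (0.85) and Lmo4 (0.84), and for Lgals1 Emp3 (0.88), Nme2 (0.86) and Pdlim1 (0.82). The sums share libraries and are not independent.

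Of 37 S100, annexin and galectin genes in the gene list, 8 had no UMI in any library and 15 averaged at least 10 CPM, among them the 8 of the genes above that belong to these families. Of the other 7, Anxa5, the phosphatidylserine-binding annexin, shared the lymph node pattern at 35.2 and 42.6 in liver, 33.5 and 37.2 in spleen, 99.1 and 111 in lymph node (CPM), and edgeR gave -1.49 (SE 0.14, adjusted p 2.06e-10) for liver and -1.55 (SE 0.15, adjusted p 8.65e-10) for spleen over lymph node. S100a13 was level at 418 and 459.9 in liver, 441 and 434 in spleen, 444 and 424 in lymph node. Anxa6 (317 and 301 in liver, 237 and 193 in spleen, 239 and 218 in lymph node) was higher in liver, at 0.44 (SE 0.12, adjusted p 0.00493) over spleen and 0.37 (SE 0.12, adjusted p 0.0106) over lymph node. Lgals9 (137 and 169 in liver, 106 and 95.9 in spleen, 100.2 and 97.9 in lymph node) was higher in liver as well, at 0.52 (SE 0.13, adjusted p 0.00234) and 0.57 (SE 0.13, adjusted p 0.000499), the reverse of Lgals1 and Lgals3. Anxa11 was 0.57 (SE 0.13, adjusted p 0.00149) for liver over spleen. Anxa7, at 42.4 to 59.4 CPM, and Lgals8, at 35.5 to 48.9 CPM, were close to level. The call of Anxa6 was lost without spleen sample 2 (0.131) in liver over spleen and without lymph node sample 2 (0.146) in liver over lymph node, that of Lgals9 over spleen without liver sample 2 (0.0594) and that of Anxa11 without spleen sample 2 (0.0517) (adjusted p, edgeR).

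The 3 lists of other genes were read beside the 10 and were written with earlier results of these data known. Of 23 tested partners of annexins, galectins, LIM and gelsolin proteins, 5 were higher and 2 lower in liver over spleen, 7 higher and 6 lower in liver over lymph node, and 2 higher and 4 lower in spleen over lymph node. Of all genes tested, 25.9%, 37.6% and 18.2% were called in these pairs. The largest folds against lymph node were Anxa5 (-1.49, adjusted p 2.06e-10), Anxa4 (-1.05, adjusted p 0.0137), Cd7 (-0.88, adjusted p 4.56e-07) and Flii (0.73, adjusted p 0.000169) for liver and Anxa4 (-1.58, adjusted p 0.0045), Anxa5 (-1.55, adjusted p 8.65e-10), Cd7 (-0.66, adjusted p 0.000118) and Ptprc (0.45, adjusted p 0.00512) for spleen. The list as a whole thus had no single direction. In liver over spleen Crip2 (-1.70, adjusted p 0.0235), Anxa11 (0.57, adjusted p 0.00149), Lgals9 (0.52, adjusted p 0.00234) and Capza2 (-0.49, adjusted p 0.00449) led. With 1 library left out, the call of Crip2 was lost without liver sample 1 (0.118) or liver sample 2 (0.136) or spleen sample 1 (0.173) or spleen sample 2 (0.1), and that of Capza2 without liver sample 1 (0.0944) or spleen sample 2 (0.155) (adjusted p, edgeR). The call of Anxa4 for liver was lost without liver sample 1 (0.202) or lymph node sample 1 (0.053) or lymph node sample 2 (0.119), and for spleen without spleen sample 2 (0.0509) or lymph node sample 2 (0.0557); DESeq2 did not call it for liver (0.119). That of Ptprc was lost without spleen sample 2 (0.0717) or lymph node sample 1 (0.0794).

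Of 18 effector and migration genes, 11 were higher and 5 lower in liver over lymph node, 5 higher and 2 lower in liver over spleen and 7 higher and 5 lower in spleen over lymph node, beside 37.6%, 25.9% and 18.2% of all genes called. Gzmb (4.87, adjusted p 1.42e-12), Ccl5 (2.49, adjusted p 3.12e-16) and Ly6c2 (2.23, adjusted p 7.19e-16), a granzyme, a chemokine and a surface protein of effector cells, led in liver over lymph node, opposite to Capg and S100a4, while Lmna (-1.90, adjusted p 1.02e-05) had their direction. Of 10 homing and quiescence genes, 8 were lower in liver than in spleen, beside 13.1% of all genes lower, and 6 lower in liver than in lymph node, beside 19.6%, led by Dapl1 (-5.97, adjusted p 4.52e-09) with 2 UMIs in each liver library, Il7r (-2.11, adjusted p 1.07e-15) and Ccr7 (-1.61, adjusted p 1.01e-07). In spleen over lymph node 2 were higher and 3 lower, with Dapl1 (-3.27, adjusted p 5.89e-06), Klf2 (1.00, adjusted p 1.11e-07), Il7r (-0.99, adjusted p 7.14e-08) and Lef1 (0.52, adjusted p 0.00156) leading. Dapl1 counted 14 and 1 UMIs for spleen against 83 and 63 for lymph node, and its fold was -5.99 without spleen sample 1. The call of Lef1 was lost without lymph node sample 2 (0.0636) (adjusted p, edgeR).

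In Ccr7 cells against Il2rb cells, 8 of 17 effector genes tested were lower and 4 higher, beside 2.94% of 7591 genes called, 1.9% lower and 1.04% higher, with Gzmb (no UMI in Ccr7 cells of any spleen or lymph node library), Ccl5 (-2.32, adjusted p 0.00165), Ly6c2 (-2.05, adjusted p 1.65e-06) and Myo1f (-1.49, adjusted p 0.00626) leading. Of 8 homing genes other than Ccr7, which defines the set, 5 were higher, led by Dapl1 (5 and 0 UMIs in spleen Ccr7 cells and 23 and 7 in those of lymph node, against 1 and 0 in the Il2rb cells of each organ), Tcf7 (1.49, adjusted p 2.51e-12) and S1pr1 (1.46, adjusted p 2.76e-05). The partner list gave 1 call among 19, Cd7 (-0.67, adjusted p 0.0175). In dividing cells Vim (1.69, adjusted p 1.84e-44), Lmna (1.62, adjusted p 8.59e-05), Ccl5 (-1.21, adjusted p 0.00214) and Cxcr6 (-0.76, adjusted p 4.04e-20) led the effector list, in which 5 were higher and 7 lower, and Csrp1 (1.33, adjusted p 8.80e-22), a LIM protein like Crip1, led the partner list, with 1 higher and 3 lower; there 22.1% of all genes were called, 11.3% higher and 10.8% lower. In Ccr6 or Il23r cells, where 9.83% of all genes were called, 4.19% higher and 5.64% lower, 5 partners were higher and 2 lower, led by Mgat5 (1.43, adjusted p 0.00061), Cd7 (1.18, adjusted p 4.74e-19), Anxa7 (0.92, adjusted p 0.00839) and Ahnak (0.66, adjusted p 0.000946). Mgat5 makes the branched glycans that galectins bind. The effector list gave 5 higher and 6 lower there, led by Ccl5 (-2.90, adjusted p 0.00012), Ly6c2 (-2.89, adjusted p 3.20e-11), Cxcr3 (-2.66, adjusted p 5.72e-39) and Gzmb (0 to 2 UMIs per library in the Ccr6 or Il23r cells), and the homing list 2 higher and 1 lower, with Lef1 (-1.84, adjusted p 3.13e-16), Il7r (1.30, adjusted p 2.67e-32) and Tcf7 (0.95, adjusted p 7.22e-06). In Gzma cells, where 0.422% of all genes were called and 0.329% called higher, the calls were Cd7 (1.76, adjusted p 7.78e-36) and Ahnak (0.71, adjusted p 0.0287) among partners, Vim (1.81, adjusted p 9.37e-12), Gzmb (1.72, adjusted p 3.94e-29) and Cxcr6 (-0.57, adjusted p 0.00128) among effector genes and S1pr1 (1.46, adjusted p 0.00536) and Klf2 (1.02, adjusted p 8.97e-07) among homing genes. Several of these calls rested on single libraries. In Ccr7 cells that of Ccl5 was lost without spleen sample 1 (0.0719), Ly6c2 without spleen sample 2 (0.115), Myo1f without spleen sample 1 (0.0921) or lymph node sample 2 (0.0563) and Cd7 without spleen sample 1 (0.311) or spleen sample 2 (0.0995) or lymph node sample 1 (0.0983) (adjusted p, edgeR). In dividing cells that of Lmna was lost without liver sample 2 (0.0802), with a fold of 1.04. In Ccr6 or Il23r cells Mgat5 was lost without lymph node sample 1 (0.174), Anxa7 without lymph node sample 1 (0.207) or lymph node sample 2 (0.0503) and Ahnak without lymph node sample 2 (0.0517). In Gzma cells Ahnak was lost without liver sample 1 (0.733) or liver sample 2 (0.813) or spleen sample 1 (0.0566), S1pr1 without liver sample 1 (0.878) or liver sample 2 (0.193) and Klf2 without liver sample 1 (0.976), where its fold was 0.55. DESeq2 did not call Ahnak (0.367), Cxcr6 (0.0885) or Gzmb (0.678) in Gzma cells, nor Cd7 (0.257) in Ccr7 cells. With thinned cells edgeR did not call Myo1f (0.628) or Cd7 (0.129) in Ccr7 cells, Ccl5 (0.0573) in dividing cells, Anxa7 (0.0931) in Ccr6 or Il23r cells, or Cxcr6 (0.39) and S1pr1 (0.811) in Gzma cells.

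Within Il2rb cells, 3 of 20 partners tested were higher and 1 lower in liver over spleen, 2 higher and 4 lower in liver over lymph node, and 2 lower in spleen over lymph node, beside 14.9%, 16% and 3.9% of all genes called. Anxa4 (-1.76, adjusted p 0.0444) and Anxa5 (-1.32, adjusted p 0.000185) led in liver over lymph node, and the calls in spleen over lymph node were Anxa5 (-1.37, adjusted p 0.00173) and Anxa4, which rested on 1 UMI in each spleen library and 5 and 6 in those of lymph node. Both annexins were higher in lymph node, as Capg and S100a4 were. Within Ccr6 or Il23r cells, spleen over lymph node called none of 15 partners, beside 0.577% of 4682 genes called. The calls were Ccl5 (1.67, adjusted p 8.46e-06) among effector genes and Klf2 (1.58, adjusted p 0.000656) among homing genes. On simulated data this fit recovered 14.1% of 2-fold and 35% of 4-fold changes, so a lack of calls does not show that the organs were alike. The call of Anxa4 in liver over lymph node was lost without each library in turn (adjusted p from 0.0798 to 0.34, edgeR), and that of Anxa5 in spleen over lymph node without spleen sample 1 (0.0526) or lymph node sample 1 (0.0525). In Ccr6 or Il23r cells both calls were lost without spleen sample 1, with folds of 1.01 for Ccl5 and 0.77 for Klf2.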

How the data were processed

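The data are droplet single-cell RNA libraries of sorted iNKT cells, 2 from each of liver, spleen and lymph node. The labels give the molecule as nuclear RNA, although the protocol describes whole sorted cells. The libraries were treated here as libraries of whole cells. The authors aligned reads to mm10 and made the deposited counts, whole UMIs per gene and cell, with Cell Ranger 3.1.0, and the submitters' processing notes also name Seurat. The gene and barcode lists, other text deposited with the counts, gave gene symbols and cells. The 10 genes and the gene lists were chosen with earlier results of these data known.

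Cells were kept with 300 to 4000 genes and at most 15% mitochondrial UMIs, the limits the study states, which left out 55 barcodes. No doublet caller was run. The study also left out cells with UMIs of both Xist and Y-linked genes, of which there were 0 here. The number of cells left differs from the one the study states, and the cause was not found. CPM values exclude 112 ribosomal and haemoglobin genes. UMIs were summed per library and cell set (at least 10 cells) and fitted with edgeR 4.0.16 (R 4.3.3; filterByExpr, TMM, quasi-likelihood F test, Benjamini-Hochberg over all genes tested, threshold 0.05). Organ fits had organ as the term; cell set fits had set and library. The scripts were tested on simulated data. Total UMIs per library ran from 4768016 to 11086603; p-values cover the spread between these libraries only. For shares of cells, each cell was thinned to 1000 UMIs, which left 15457 of 16532 cells. Cells too shallow for this numbered 0 and 9 in the liver libraries, 144 and 169 in those of spleen and 265 and 488 in those of lymph node. The thinned shares thus leave out shallow cells mainly of lymph node and spleen.

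Named genes outside the 10 were S100, annexin and galectin genes averaging at least 10 CPM, at most 4 called genes with the largest fold per list and comparison, and the 3 genes most like S100a4, S100a6 and Lgals1 by Pearson r of log2(CPM + 1). A gene that this rule also named is not reported here. Alternatives were DESeq2 1.42.0, no filter on low counts, thinned cells, other cell set limits, 1 organ alone, other blocking and leaving out each library. Leaving out cells with a myeloid or B cell marker UMI, the fits of Ccr7 and dividing cells against cells with no marker UMI, the differences between organs of a cell set's fold and the organ fits within Ccr7 and dividing cells were added after seeing the data. The sources used here do not give the number of mice per library.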

Additional observations from a re-analysis of the deposited data

Results flagged for a closer look

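S100a4, S100a11 and S100a10 were higher in Ccr7 cells than in Il2rb cells of both spleen libraries and lower in those of both lymph node libraries. Fitted in spleen alone, the log2 folds were 1.38 (SE 0.25), 0.99 (SE 0.12) and 0.53 (SE 0.12) for these genes. In lymph node alone they were -0.81 (SE 0.23), -0.17 (SE 0.11) and -0.06 (SE 0.11), so the step down was small for S100a11 and S100a10. The log2 difference of these folds, spleen minus lymph node, was 2.19 (SE 0.34) for S100a4, 1.15 (SE 0.15) for S100a11 and 0.58 (SE 0.15) for S100a10. The difference was not tested, since it holds the spleen and lymph node difference of Il2rb cells on which the genes were chosen. Between Ccr7 cells alone, spleen over lymph node was 0.33 (SE 0.32), 0.21 (SE 0.18) and 0.28 (SE 0.18) for the same genes. The spleen and lymph node libraries also differ in Xist and Y-linked UMIs, which cannot be told apart from the organ.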

How the results depend on the processing

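Genes called by edgeR numbered 2653, 3849 and 1869 over all cells (liver over spleen, liver over lymph node, spleen over lymph node), 1240, 1337 and 325 in Il2rb cells, 27 in Ccr6 or Il23r cells, and 746, 223, 32 and 1674 for Ccr6 or Il23r, Ccr7, Gzma and Mki67 or Top2a cells over Il2rb cells. Over cells with no marker UMI they numbered 164 (Ccr7) and 817 (Mki67 or Top2a without Il2rb). DESeq2 called 1452 (liver over spleen) and 1139 (spleen over lymph node) over all cells, 467, 766 and 213 in Il2rb cells, 13 in Ccr6 or Il23r cells, 13 for Gzma cells, and 96 for Ccr7 cells over those with no marker UMI. Thinned cells gave 1729 (liver over spleen, all cells), 753, 739 and 205 (Il2rb cells), and 305, 105, 21 and 297 for the 4 cell sets, and 68 and 113 over cells with no marker UMI. At least 2 Il2rb UMIs per cell gave 248, 174 and 32. With 1 organ alone, liver gave 1095 (Mki67 or Top2a), spleen 107 (Ccr6 or Il23r), 9 (Gzma) and 648 (Mki67 or Top2a), and lymph node 70 (Ccr7) and 572 (Mki67 or Top2a). Leaving out 1 library at a time gave 1386 to 2422, 2400 to 4052 and 1015 to 1952 over all cells, 314 to 1394, 656 to 1412 and 190 to 362 in Il2rb cells, 13 to 32 in Ccr6 or Il23r cells, and 383 to 715, 89 to 223, 23 to 36 and 1161 to 1465 for the 4 sets, and 66 (without spleen sample 1) to 189 and 566 to 953 over cells with no marker UMI. The cause of these shifts was not tested.

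The share of calls that were higher moved by over 10 points with DESeq2 from 49.8% to 39.6% (Il2rb cells, liver over spleen), from 42.6% to 54.2% (Ccr6 or Il23r), 35.4% to 52.9% (Ccr7), 78.1% to 100% (Gzma) and 51.2% to 64.5% (Mki67 or Top2a), and with thinned cells to 90.5% (Gzma), 64.6% (Mki67 or Top2a) and, from 25.9%, to 10.5% (Ccr6 or Il23r cells, spleen over lymph node). Over cells with no marker UMI it moved from 57.0% to 70.3% with DESeq2 and to 67.3% with thinned cells (Mki67 or Top2a without Il2rb). Without a filter on low counts it was 17.5%, from 32.9%, for Ccr7 cells over those with no marker UMI, 67.6% (Gzma) and 15.6% (Ccr6 or Il23r cells, spleen over lymph node), the last at 7.69% without spleen sample 1. With 1 organ alone it was 69.1%, 63.3% and 66.8% in liver, spleen and lymph node (Mki67 or Top2a) and 100% in spleen (Gzma). For Mki67 or Top2a cells it was 62.4% without liver sample 2 and 62.2% without lymph node sample 1, and for those without Il2rb 70.8% without spleen sample 2.

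In Ccr7 cells over Il2rb cells, S100a11 (-0.17), S100a4 (-0.81), S100a6 (-0.05), S100a10 (-0.06) and Crip1 (-0.13) had folds above 0 over both organs and below 0 in lymph node alone. Of other genes, Dapl1 in liver over spleen (-2.69) ran from -3.52 without spleen sample 2 to 0.024 without spleen sample 1. Vim in Il2rb cells, spleen over lymph node, was 0.36 with at least 2 Il2rb UMIs. In spleen alone Cd7 (-0.17) and S1pr1 (-0.0063) in Gzma cells and Lef1 (0.19) in Mki67 or Top2a cells reversed, as did Ptprc (0.053) in lymph node alone.

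The labels do not say what a sample number shares across organs, and each comparison has only 2 numbers. The difference of sample 1 from sample 2 correlated between organs at 0.181, 0.105 and 0.112 over 6445 genes, a hint from the data and not from the design. With the number as a replicate block, 3068, 4173 and 2141 genes were called over all cells, 1852, 1664 and 468 in Il2rb cells and 22 in Ccr6 or Il23r cells. Without the library block, the sets gave 611, 183, 21 and 1374.

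Liver Ccr6 or Il23r cells (5 and 6) were too few for the planned liver comparisons, and the limit of 2 UMIs gave no value for Ccr6 or Il23r cells. Genes with few UMIs, such as Anxa1 in Ccr6 or Il23r cells, are limited by depth.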
